A study of Mus musculus with 12 samples.

Results

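RNA of spinal origin was compared with RNA of brain origin on all 12 arrays of the series, 6 on each side. The spinal side held 3 arrays of ependymal cells sorted from adult spinal cord (SC) as CD133+/CD24+/CD45-/CD34- and 3 arrays of neurospheres, adult spinal cord cells grown in culture and not sorted. The brain side held 3 arrays of adult ependymal cells of the lateral ventricle wall (LVW) sorted by the same gate and 3 arrays of radial glia sorted as CD133+/CD24-/CD45-/CD34- from forebrain at embryonic day 14.5. All were C57Bl/6 mice, and every RNA was amplified in 2 rounds before labelling. The members were all arrays with either origin in their label, and the effect of origin was the mean of the 2 spinal groups minus the mean of the 2 brain groups in a fit of the 4 groups. Origin was not crossed with culture, sorting or age: the spinal side contained the only cultured and the only unsorted cells, and the brain side the only embryonic cells. Only SC and LVW compared the origins in adult ependymal cells sorted by the same gate. In the main effect of the fit, culture, sorting and age cannot be told apart from origin. The description therefore rests on genes with 1 direction in each of the 4 cross-origin pairs: SC minus LVW, SC minus radial glia, neurospheres minus LVW, and neurospheres minus radial glia.

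Position along the neural tube is laid down in the embryo. Hox genes, which lie in 4 clusters and encode homeodomain transcription factors, are switched on in the hindbrain and spinal cord in an order that follows their order in the cluster, under retinoic acid and other posterior signals. The forebrain and midbrain form without Hox expression and use other homeodomain factors, among them Otx1, Otx2, the Dlx factors of the ventral telencephalon and Nkx2-1. Ependymal cells line the ventricles and the central canal with motile cilia, radial glia are the progenitors of the embryonic brain, and neurospheres are free-floating clusters of dividing neural cells.

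All levels below are log2 normalised probe signals, and a difference of 1 is a 2-fold change. Mean raw intensity was 350 to 405 on the LVW arrays, 170 to 194 on SC, 360 to 375 on radial glia, and 199, 248 and 654 on neurosphere replicates 1, 2 and 3. Neurosphere replicate 3 detected 16175 probes against 10742 to 13487 on the other 11 arrays, and its correlation with the other neurosphere arrays was 0.895 and 0.869, against 0.973 between those 2. The LVW arrays agreed least within their group, with correlations of 0.836 to 0.876 against 0.95 to 0.968 for radial glia. Labelled cell types were checked on marker lists, of which only genes detected on at least 3 of 12 arrays were tested. All 12 ependymal markers and all 38 motile cilia genes tested were detected in SC and in LVW. Genes undetected in neurospheres and radial glia, such as Hydin, passed that filter only through SC and LVW, so these counts are no support in themselves. The summed signal of the cilia genes was 180000 to 181000 on SC and 172000 to 195000 on LVW arrays. It was 8200 to 9070 on neurospheres and 10900 to 18200 on radial glia. Of 11 radial glia markers, Fabp7 and Ptprz1 were undetected on the radial glia arrays. Summed over the 11, the signal was 29900 to 30900 on radial glia, 29100 to 34000 on SC and 26700 to 34600 on LVW. It was highest on neurospheres, at 35900 to 42600, so this list did not set radial glia apart.

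Of 9526 genes tested, 1518 differed by origin at an adjusted p under 0.05 in limma, which is 15.9%. Of these, 628 were higher in spinal cells (6.59%) and 890 lower (9.34%). With arrays scaled to equal medians in place of quantiles, the median gene moved from -0.02 to -0.27, and the split became 294 higher and 791 lower, or 27.1% higher in place of 41.4%. Without neurosphere replicate 3 the count was 2375, with 970 higher and 1405 lower. In the fit of origin with the 4 groups as a random block, which allows for an estimated correlation of 0.592 between arrays of a group, 16 genes were called, 13 higher and 3 lower, and 353 had an unadjusted p under 0.05. Of the 1518, 744 had the same sign in each of the 4 pairs, or 7.81% of all genes, 345 higher (3.62%) and 399 lower (4.19%).

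A stricter set of 79 genes (0.829%) was called in each of the 4 pairs in the same direction, 40 higher in spinal cells (0.42%) and 39 lower (0.409%). The 40 included 13 Hox genes, with the retinaldehyde dehydrogenase Aldh1a1 and the ventral neural tube factor Nkx6-1 beside them. The 39 included 5 forebrain and midbrain factors, namely Otx1, Otx2, Dlx1, Dlx2 and Nr2e1. The 6 arrays of one origin did not overlap the 6 of the other for 37 of the 40 and 38 of the 39. Non-overlap held for 2.09% of all genes, 1.08% higher and 1.01% lower in spinal cells. The set was picked for its pair differences on these same arrays, so its non-overlap follows largely from that choice and is no support in itself. The smallest of the 4 pair differences had a median of 2.45 among the higher genes, with a range of 1.10 to 8.31, and of 2.08 among the lower ones, with a range of 0.94 to 5.24 in size. Under median scaling 17 genes were called higher in all 4 pairs in place of 40. Without neurosphere replicate 3 the set held 94 genes, 45 higher and 49 lower, and without each LVW array in turn it held 76, 81 and 103. Since a pair was called at an adjusted p under 0.05, the set had an edge: Cpeb3 lay just inside it among the higher genes with a largest pair p of 0.0477 and Nap1l5 just outside with 0.0506, and among the lower genes Rhob lay inside with 0.0489 and Tgfb3 outside with 0.0525 (limma, adjusted).

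The pairs gave 766 calls (8.04%) for SC minus LVW, 3033 (31.8%) for SC minus radial glia, 3210 (33.7%) for neurospheres minus LVW and 1933 (20.3%) for neurospheres minus radial glia. The first and the last of these share no array, and neither do the second and the third. Of the 294 genes called higher in SC than LVW (3.09%), 56 were called higher in neurospheres than radial glia, which is 19% of the first list and 6.37% of the second, where 9.23% of all genes were called higher in that second comparison. Of the 472 called lower in SC than LVW (4.95%), 66 were called lower in neurospheres than radial glia, 14% of the first list and 6.26% of the second, where 11.1% of all genes were called lower. Opposite calls were also made: 34 of the 294 and 68 of the 472 were called the other way in neurospheres against radial glia. These are 11.6% and 14.4%, where 11.1% and 9.23% of all genes were called in those directions. The 34 thus lie near the share of all genes. The 472 were called the same way and the opposite way at like shares, 14% and 14.4%. Of 1413 genes called higher in SC than radial glia, 84 (5.94%) were called higher in neurospheres than LVW, where 17.3% of all genes were. Of 1620 called lower, 81 (5%) were called lower, where 16.4% were. Opposite calls were 814 (57.6%) and 571 (35.2%), where 16.4% and 17.3% of all genes were called in those directions.

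**Figure D1:**
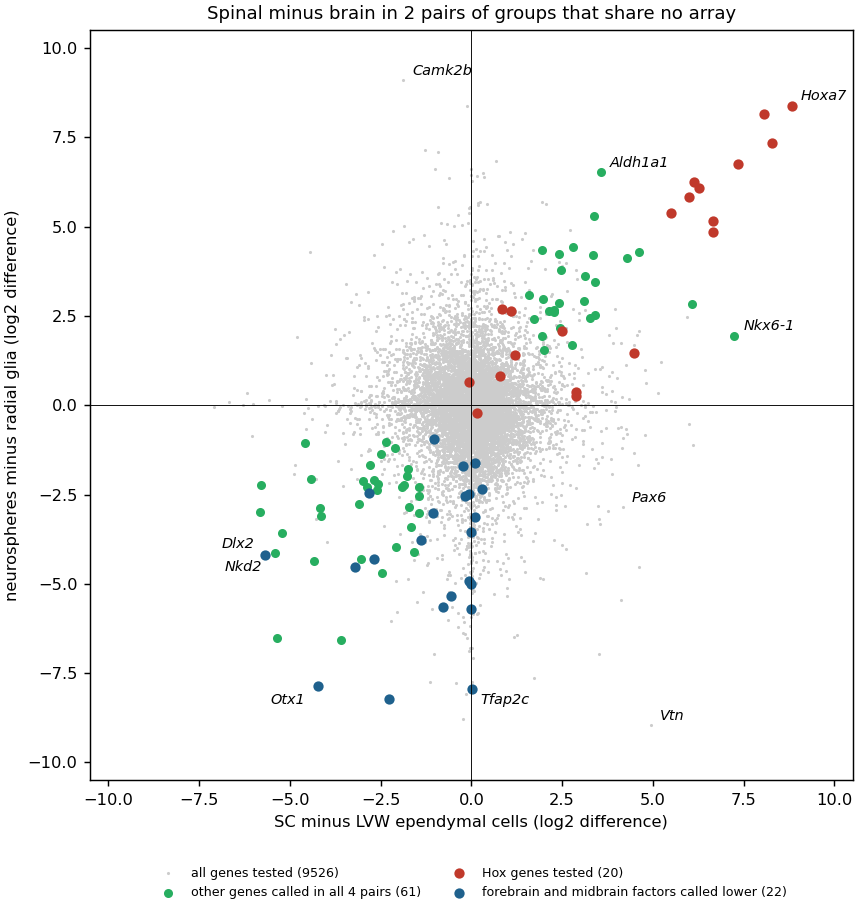
Each point is a gene, with its log2 difference between SC and LVW ependymal cells on the horizontal axis and between neurospheres and radial glia on the vertical axis, 3 arrays in each group. Hox genes (red) lie toward the upper right, up to 8.83 and 8.38 for Hoxa7, the forebrain and midbrain factors called lower in spinal cells (blue) lie along the lower part with Tfap2c at 0.01 and -7.95, and genes such as Vtn, at 4.93 and -8.96, lie in the corners of opposite direction.

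Hox genes were higher in spinal cells, most of them with no detected signal in the brain groups. Of 39 Hox genes listed, 37 were named on the array and 20 passed the filter on dim probes, which kept probes detected on at least 3 of 12 arrays. A gene silent in the brain groups could pass only through the spinal arrays, so these 20 are not all Hox genes and their share called is not support in itself. Of the 20, 18 were called higher in spinal cells and none lower, and the exceptions were Hoxb1 and Hoxc4. Of the 20, 19 were detected on at least 1 SC array and 19 on at least 1 neurosphere array, against 2, Hoxb1 and Hoxb4, in the LVW and radial glia groups. The median difference by origin was 4.21, and 3.04 with undetected genes held at their bounds, beside -0.02 over all genes. By cluster, 4 of 4 Hoxa, 7 of 8 Hoxb, 3 of 4 Hoxc and 4 of 4 Hoxd genes were called higher.

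Hoxa7, a gene of the middle of its cluster, stood at 13.60, 13.60 and 13.56 in SC and at 13.09, 13.27 and 12.81 in neurospheres. It was 4.77, 4.69 and 4.80 in LVW and 4.74, 4.63 and 4.65 in radial glia, where no array detected it. All spinal arrays were high, all brain arrays were at background, and the groups did not overlap. The difference by origin was 8.61 (SE 0.17, 6 arrays against 6 in 2 groups each, limma adjusted p = 9.95e-11). The SEs and p-values of the 4-group fit, here and below, measure the spread of arrays within groups, not of groups within an origin. In the random-block fit the SE for Hoxa7 was 0.42. Where an origin detected a gene on none of its arrays, a lower limit on the fold sets the mean of the higher side against the weakest detected signal of each array on the other side, or the probe's own signal where that was higher, and for Hoxa7 the limit was at least 193-fold higher in spinal cells.

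Hoxa5, which patterns the cervical and upper thoracic region, was 12.64, 12.57 and 12.69 in SC and 12.84, 13.33 and 12 in neurospheres. Its brain arrays, all undetected, lay between 4.54 and 4.60. The spinal groups overlapped each other and neither overlapped the brain groups. The difference was 8.11 (SE 0.23, adjusted p = 2.39e-09), at least 123-fold, and that between SC and neurospheres was -0.09 with a 95% interval of -0.81 to 0.62.

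Hoxc6 was 13.05, 12.81 and 12.72 in SC and 12.51, 12.49 and 10.69 in neurospheres, with 4.52 to 4.60 on the brain arrays. Hoxb7 was 12.75, 12.26 and 12.33 in SC, 11.59, 12.08 and 11.18 in neurospheres, and at most 5.34 on a brain array. For both, neurosphere replicate 3 was the lowest spinal array. Their differences by origin were 7.82 (SE 0.30) and 7.05 (SE 0.21). The thoracic genes Hoxc8 and Hoxc9, neighbours in the HoxC cluster, each differed by 6.18 and were at least 33.2-fold and 35.1-fold higher. Hoxb2, a gene of the anterior end whose domain reaches into the hindbrain, differed by 5.92, Hoxd4 by 5.91, Hoxb5 by 5.76 and Hoxd8 by 5.45, with limits of at least 37.3-fold, 27.4-fold, 26.3-fold and 19.5-fold. These 10 Hox genes were detected on 6 of 6 spinal and 0 of 6 brain arrays, a pattern shown by 12 of all genes tested (0.126%), the other two being Aldh1a1 and the GABA transporter Slc6a11. The 10 were also called in the random-block fit, with adjusted p from 1.34e-07 for Hoxa7 to 0.0203 for Hoxd4 and Hoxd8.

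The remaining called Hox genes were dimmer or were high in 1 spinal group. Hoxa2 differed by 2.28 (SE 0.36), Hoxa9 by 1.87 (SE 0.21) and Hoxd10 by 2.97 (SE 0.28), each called in the 4 pairs. Under 22 other settings the call in all 4 pairs was made 18 times for Hoxa2, 17 times for Hoxd10 and 8 times for Hoxa9. Hoxb3 at 0.80 and Hoxb4 at 1.30 had 1 direction in the 4 pairs without a call in each, and under median scaling neither passed, with limma adjusted p of 0.115 and 0.0593. Hoxb3 also did not pass on the authors' deposited log2 values, with a difference of 0.28. The calls of all 18 Hox genes were made without neurosphere replicate 3 as well. Hoxb1 was detected on all 12 arrays at 6.03 to 6.87 with a difference of -0.04 (SE 0.22), and Hoxc4 was detected on the neurosphere arrays alone, at 6.06 to 6.09.

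**Figure D2:**
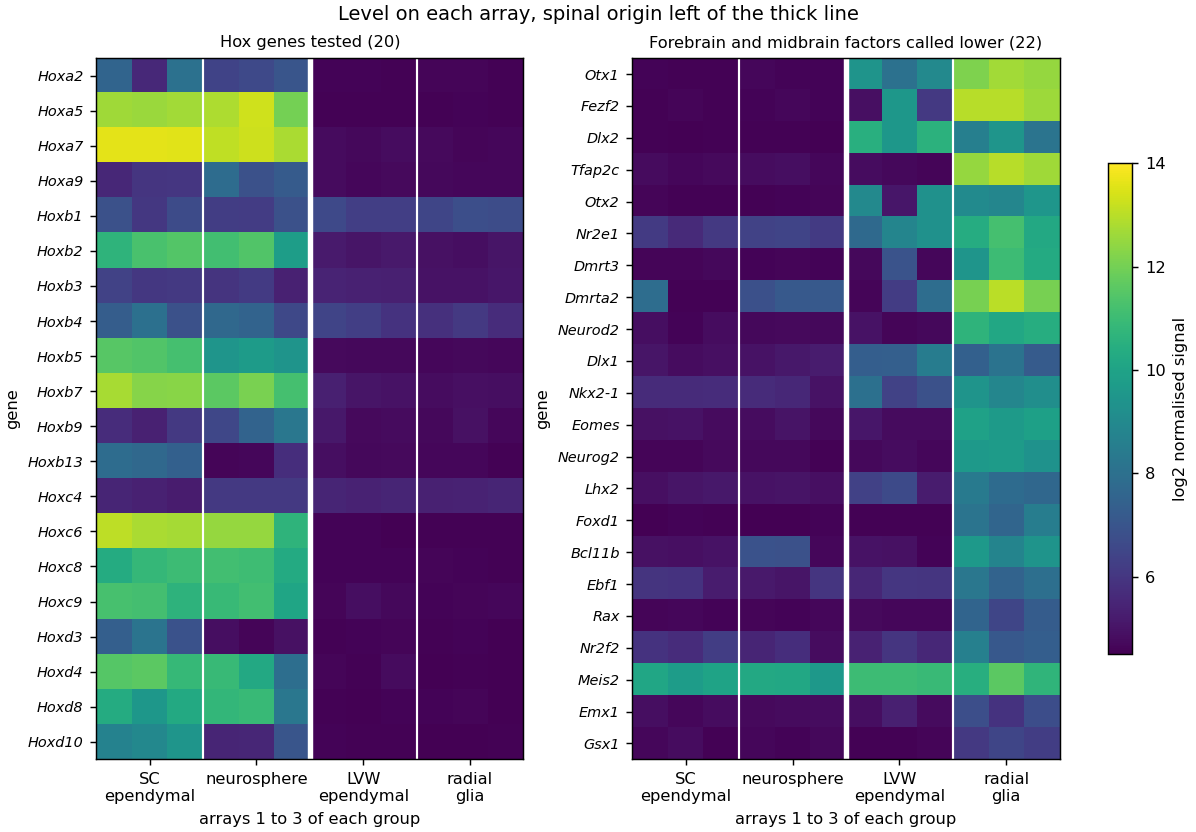
Log2 normalised signal of each gene (rows) on each of the 12 arrays (columns), with the spinal groups to the left of the thick white line. The left panel holds the 20 Hox genes tested, most of which are bright on the 6 spinal arrays and dark on the 6 brain arrays, and the right panel the 22 forebrain and midbrain factors called lower in spinal cells, many of which are bright in radial glia alone.

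The promoter windows of 4 Hox genes called in all 4 pairs are shown, 3 with the letters marked below and 1 without. The window of Dlx2, a forebrain factor with the opposite pattern, is shown beside them. Retinoic acid receptors, which act upstream of Hox genes, bind DNA repeats of the half-site AGGTCA, and these letters were marked for that reason. The windows run from 250 bases before to 50 after the start in RefSeq on build GRCm38.p6, on the gene's own strand, and capitals mark the letters AGGTCA on either strand. They are Hoxa7 at chr6:52218524-52218823 (minus strand), Hoxa5 at chr6:52204538-52204837 (minus strand), Hoxd4 at chr2:74721728-74722027 (plus), Hoxd8 at chr2:74704365-74704664 (plus) and Dlx2 at chr2:71546705-71547004 (minus).
Hoxa7: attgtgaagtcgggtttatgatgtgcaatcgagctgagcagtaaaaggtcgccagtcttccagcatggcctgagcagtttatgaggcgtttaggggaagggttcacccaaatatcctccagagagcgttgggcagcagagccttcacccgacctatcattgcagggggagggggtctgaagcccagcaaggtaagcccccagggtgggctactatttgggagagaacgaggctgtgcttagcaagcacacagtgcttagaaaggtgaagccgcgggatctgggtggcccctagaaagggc
Hoxa5: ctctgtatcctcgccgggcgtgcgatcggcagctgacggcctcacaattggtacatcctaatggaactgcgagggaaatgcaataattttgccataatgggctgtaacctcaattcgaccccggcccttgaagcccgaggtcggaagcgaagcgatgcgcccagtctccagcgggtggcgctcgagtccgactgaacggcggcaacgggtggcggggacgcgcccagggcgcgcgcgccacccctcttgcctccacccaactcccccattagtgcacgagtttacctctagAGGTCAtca
Hoxd4: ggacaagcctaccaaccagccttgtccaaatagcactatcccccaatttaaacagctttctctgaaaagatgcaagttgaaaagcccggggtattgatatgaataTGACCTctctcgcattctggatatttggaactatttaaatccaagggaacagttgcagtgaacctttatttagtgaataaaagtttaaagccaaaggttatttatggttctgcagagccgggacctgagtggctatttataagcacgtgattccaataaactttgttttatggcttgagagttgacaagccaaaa
Hoxd8: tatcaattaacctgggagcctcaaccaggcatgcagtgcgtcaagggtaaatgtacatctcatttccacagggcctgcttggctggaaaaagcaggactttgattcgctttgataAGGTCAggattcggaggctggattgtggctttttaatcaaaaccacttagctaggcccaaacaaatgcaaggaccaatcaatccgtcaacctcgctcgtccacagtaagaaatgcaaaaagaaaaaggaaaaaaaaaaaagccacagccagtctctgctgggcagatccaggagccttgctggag
Dlx2: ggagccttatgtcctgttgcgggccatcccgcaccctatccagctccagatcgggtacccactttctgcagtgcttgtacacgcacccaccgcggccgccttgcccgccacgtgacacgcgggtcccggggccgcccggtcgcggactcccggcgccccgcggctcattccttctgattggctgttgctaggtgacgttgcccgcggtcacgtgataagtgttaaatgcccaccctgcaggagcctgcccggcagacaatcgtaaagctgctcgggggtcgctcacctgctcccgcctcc

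The Hoxa5, Hoxd4 and Hoxd8 windows each held 1 half-site, and the Hoxa7 and Dlx2 windows held none. Of all 7 windows of Hox genes called in the 4 pairs, 4 held it. Of the genes called in the 4 pairs, 30 of the 40 higher and 28 of the 39 lower matched a window in the table by symbol. The half-site occurred in 7 of 42 windows of the higher genes (16.7%), in 6 of 33 of the lower genes (18.2%) and in 16.3% of all 32851 windows. A composite of the kind bound by Hox proteins with their cofactors, TGATNNAT on either strand, occurred in 6 of the 42 (14.3%), in 0 of the 33 and in 8.85% of all windows, and matches of the 2 motifs overlapped in 3 windows of the table. CG dinucleotides, counted 9 in Hoxa7, 29 in Hoxa5, 4 in Hoxd4, 6 in Hoxd8 and 29 in Dlx2, had a median of 5 per window among the higher genes, 14 among the lower and 7 over all. These are letter matches, and no binding was measured.

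Between the spinal groups, 7 of the 20 Hox genes differed at an adjusted p under 0.05 in limma, where 30.2% of all genes did. SC exceeded neurospheres for Hoxb5, Hoxb13, Hoxd3 and Hoxd10, and neurospheres exceeded SC for Hoxa9, Hoxb9 and Hoxc4. Hoxb13, from the 5′ end of its cluster and active in the tail region, was 7.86, 7.71 and 7.41 in SC and 4.64, 4.65 and 5.74 in neurospheres, against 4.57 to 4.85 on the brain arrays. Hoxd10, a lumbosacral gene, was 8.73, 8.92 and 9.47 in SC and 5.48, 5.51 and 7 in neurospheres. Hoxd3, near the 3′ end, was 7.36, 8.15 and 6.89 in SC and was undetected on the neurosphere arrays. For these 3, replicate 3 was the highest neurosphere array and SC stood above all neurosphere arrays. Neurospheres were not called above LVW or radial glia for Hoxb13 and Hoxd3, and were called above both for Hoxd10, by 1.42 and 1.47. Hoxa9 ran the other way at 5.54, 5.96 and 5.99 in SC and 7.84, 6.86 and 7.22 in neurospheres, and Hoxb9 at 5.70, 5.37 and 6.06 against 6.53, 7.52 and 8.28. The differences of SC minus neurospheres were 2.65 for Hoxb13, 3.05 for Hoxd10, 2.66 for Hoxd3, 1.85 for Hoxb5, -1.48 for Hoxa9 and -1.73 for Hoxb9. The labels used here do not give the cord level from which either group was taken, so cord level and culture cannot be told apart in these differences.

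**Figure D3:**
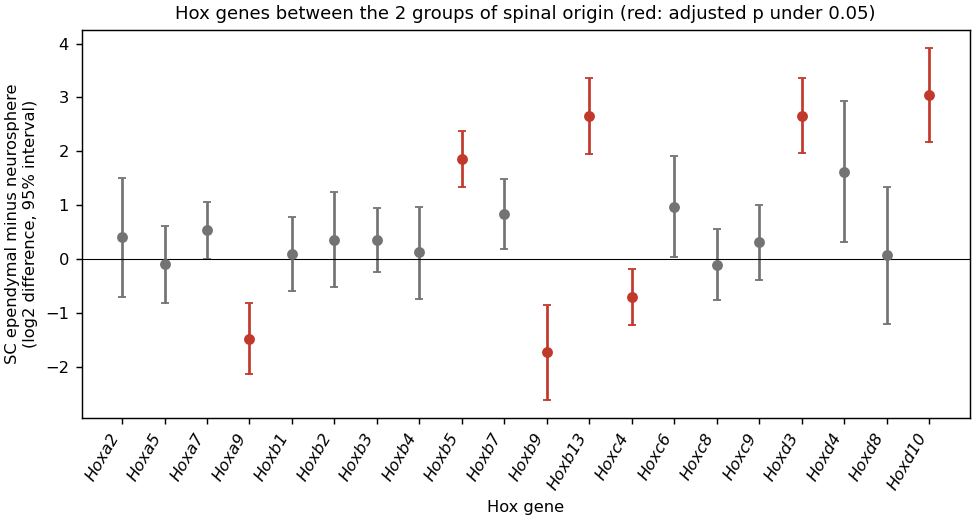
Difference of SC ependymal cells minus neurospheres for each Hox gene tested, in log2 units, with the 95% interval from the limma fit (n = 3 against 3) and red for an adjusted p under 0.05. Hoxb13, Hoxd3 and Hoxd10 lie above 2.5, Hoxa9 and Hoxb9 lie below -1, and Hoxa5, Hoxc8 and Hoxd8 lie near 0.

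The cofactors that bind DNA with Hox proteins did not move together. Of 6 tested, Meis1 (2.07, SE 0.40) and Pbx3 (1.47, SE 0.37) were called higher in spinal cells, Meis2 (-0.99, SE 0.24) and Pbx2 (-1.22, SE 0.28) lower, and none was called in all 4 pairs. Over all genes, 6.59% were called higher and 9.34% lower. Pbx3 was not called without neurosphere replicate 2 or radial glia replicate 2, at 1.38 in each case, nor under median scaling. Meis2 was 9.55 to 10.24 on spinal and 10.47 to 11.62 on brain arrays without overlap, and it was not called with the mean over its probes (-0.48, limma adjusted p = 0.263). Neither of the 2 caudal and trunk genes tested was called, and 1 polycomb or trithorax gene of 28 was called in each direction, Cbx6 higher and Cbx2 lower, both lost under median scaling.

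In the retinoic acid pathway, 2 of 8 genes were called higher and 2 lower, where 6.59% and 9.34% of all genes were. Aldh1a1 and Rxrg passed the filter only through spinal arrays and Crabp2 only through radial glia, so these counts are no support in themselves. Aldh1a1, which makes retinoic acid from retinaldehyde, was 7.94, 9.01 and 8.46 in SC and 11.19, 10.59 and 11.77 in neurospheres. It was 4.61, 5.29 and 4.83 in LVW and 4.68, 4.64 and 4.67 in radial glia, undetected on all 6. The spinal groups stood above the brain groups and neurospheres above SC without overlap. The difference by origin was 5.04 (SE 0.27, limma adjusted p = 3.06e-07), at least 17.1-fold, and it was called under each of the 22 other settings in all 4 pairs. The retinoid receptor Rxrg was high in SC alone, at 8.25, 8.54 and 8.73 against 4.51 to 5.88 elsewhere. The retinoid-binding protein Crabp2 was detected in radial glia alone, where its call was lost without radial glia replicate 3 (-0.86), and the retinol dehydrogenase Rdh10 was highest in LVW (9.13 to 11.05 against 7.14 to 8.43 on the other arrays).

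Of 49 forebrain and midbrain factors listed, 42 were named on the array and 29 tested, of which 22 were called lower in spinal cells, where 9.34% of all genes were, and 2, Lmo3 and Lmo4, higher. Of the 22, 15 were undetected on all 6 spinal arrays and so passed the filter only through the brain arrays, which leaves their count no support in itself. The median by origin was -1.78, or -1.34 with bounds, and the pair medians were -0.06 for SC minus LVW, -2.95 for SC minus radial glia, -0.22 for neurospheres minus LVW and -3.01 for neurospheres minus radial glia. All 22 were detected on the 3 radial glia arrays, and 9 were undetected on the 3 LVW arrays. In radial glia against LVW, 18 were called higher and 1 lower, where 36.5% of all genes were called in either direction. Some, among them Eomes, Neurog2 and Tfap2c, passed the filter only through radial glia, so this count is no support in itself. Of the 22, 15 had 1 direction in the 4 pairs and 5 were called in each. Tfap2c, at 12.50, 12.99 and 12.65 in radial glia and 4.62 to 4.84 on the other 9 arrays, shows the form the effect of origin takes when 1 group carries it: its difference was -3.97 while SC and LVW differed by 0.01.

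Otx1, a homeobox gene of the forebrain and midbrain, was 4.61, 4.56 and 4.57 in SC and 4.65, 4.59 and 4.58 in neurospheres. It was 9.42, 8.05 and 8.98 in LVW and 12.18, 12.70 and 12.51 in radial glia. It was undetected on the spinal arrays and detected on the brain arrays, where radial glia stood above LVW. The difference by origin was -6.05 (SE 0.24, adjusted p = 3.28e-08), at least 28.5-fold lower in spinal cells. In the random-block fit its SE was 0.89 (limma adjusted p = 0.00935). Dlx2, which directs interneuron formation in the ventral telencephalon, was 4.51 to 4.57 on the 6 spinal arrays, 10.48, 9.53 and 10.62 in LVW and 8.59, 9.44 and 8.15 in radial glia, with the LVW arrays above the radial glia arrays. Its difference was -4.94 (SE 0.27, adjusted p = 4.15e-07), at least 12.7-fold lower. Dlx1, its neighbour in the genome, differed by -2.64 (SE 0.25) and stood at 7.34, 7.36 and 8.49 in LVW and 7.40, 8.10 and 7.23 in radial glia.

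Nr2e1, the orphan receptor Tlx that maintains forebrain neural stem cells, was 6.10, 5.62 and 6.08 in SC, 6.37, 6.46 and 6.10 in neurospheres, 7.74, 8.83 and 9.31 in LVW and 10.39, 11.18 and 10.25 in radial glia. The groups of the 2 origins did not overlap, and the difference was -3.49 (SE 0.29). Otx2 was less secure: LVW replicate 2, at 5.07, was undetected beside 8.99 and 9.32 on the other LVW arrays, and the gene was called in all 4 pairs under 6 of the 22 other settings. Nkx2-1, a ventral forebrain factor, was detected on 6 of 6 brain and 0 of 6 spinal arrays, at 8.01, 6.37 and 6.87 in LVW and 9.41, 8.87 and 9.18 in radial glia, and differed by -2.58 (SE 0.28).

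Factors of the ventral neural tube were called higher in spinal cells for 5 of 8 tested, most of them through the neurospheres, where 6.59% of all genes were called higher. Nkx6-1, which marks ventral progenitors, was 11.74, 12 and 11.92 in SC, 9.17, 8.75 and 10.16 in neurospheres, 8.23, 6.10 and 7.91 in radial glia and undetected in LVW at 4.60 to 4.67. It was the member of this list called in all 4 pairs, with a difference of 4.60 (SE 0.37). Olig2, a factor of motor neuron and oligodendrocyte progenitors, was 12.72, 13.03 and 12.52 in neurospheres and 7.68 to 8.37 in radial glia, while SC, at 4.62, 6.94 and 5.88, lay below radial glia. Nkx2-2 and Spon1 were detected on every neurosphere array and on no SC array, and Ntn1, the guidance cue netrin, was higher in both spinal groups without overlap (2.16, SE 0.38). Dbx1, the 1 member called lower, was detected in radial glia alone, and Nkx2-2 in neurospheres alone. Each passed the filter on dim probes only through that group, so the counts of this list are no support in themselves.

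Dorsal factors were called lower for 4 of 9, namely Rspo2, Rspo3, Zic1 and Zic4, where 9.34% of all genes were. None of the 4 had 1 direction in the pairs, and each was higher in radial glia than in the 3 other groups. Rspo2 and Rspo3 were detected in radial glia alone and passed the filter only through it, so this count is no support in itself. The call of Rspo2 (-0.73) was lost without neurosphere replicate 1, radial glia replicate 3, or SC replicate 2 or 3, with values of -0.73 to -0.62. Gbx2, a hindbrain and dorsal cord factor, was called higher, at 9.82, 10.90 and 8.63 in neurospheres and 6.99, 7.69 and 5 in SC. Of 4 Iroquois, Pax and hindbrain genes, Irx3 was called higher, and its neurosphere and LVW means differed by 0.03. In the hedgehog pathway 1 of 7 genes, the transcription factor Gli3, was called, and it was lower (-2.09, SE 0.52).

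Outside the patterning factors, the genes higher in both spinal groups had no common list. Tmem255a, a transmembrane protein gene, was 9.93, 9.73 and 9.59 in SC and 9.79, 8.82 and 8.53 in neurospheres, against 4.62, 5.51 and 6.24 in LVW and 4.65, 5.42 and 4.72 in radial glia. Its difference was 4.20 (SE 0.32, limma adjusted p = 6.45e-06). Gpd1, the cytosolic glycerol-3-phosphate dehydrogenase, was detected everywhere but stood at 12.34 to 13.28 on the spinal arrays, 9.28 to 10.20 in LVW and 8.21 to 8.28 in radial glia, a difference of 3.62 (SE 0.24). These 2, with Aldh1a1, were the genes other than Hox that the random-block fit called higher. The myosin adaptor gene Myrip (3.43, SE 0.46), the kinase gene Srpk3 (4.46, SE 0.54) and the cytochrome P450 gene Cyp4f14 (4.34, SE 0.49) were also called in all 4 pairs, and each had an LVW array well above the others of its group, at 7.02, 8.29 and 7.83.

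Among all genes, those whose profile over the 12 arrays was most like the mean profile of the 20 Hox genes were Tmem255a (Pearson r of 0.97), Bhlhe40 (0.95), Gpd1 (0.94), Ednrb (0.93) and Dner (0.92). These correlations describe 12 arrays that fall into the 4 groups. Ednrb, the endothelin B receptor, was 13.19 to 14.20 on spinal and 11.04 to 12.17 on brain arrays. Dner, a transmembrane ligand of Notch, was 11.85 to 13.18 on spinal and 8.45 to 10.38 on brain arrays, and Bhlhe40, a repressor of the circadian clock, was 10.10 to 10.46 against 8.07 to 9.08. For these 3 the origins did not overlap, and the SC and neurosphere means differed by at most 0.13 in size. They were picked for likeness to the Hox profile on the same arrays, so both traits follow largely from that choice.

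**Figure D4:**
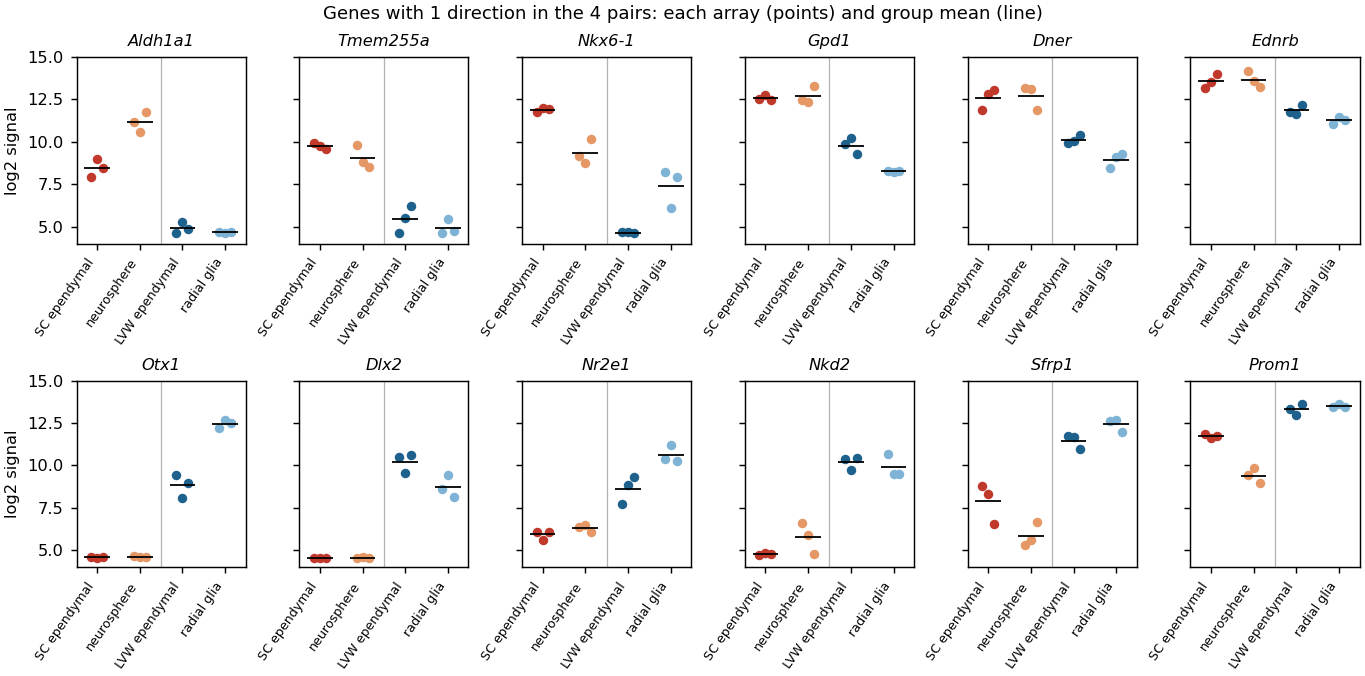
Log2 signal of 12 genes called in all 4 pairs on each array (points), with the mean of each group (line), 3 arrays a group. The upper 6 genes are higher on both spinal groups (red and orange) and the lower 6 on both brain groups (dark and light blue), with differences by origin from 5.04 for Aldh1a1 to -6.05 for Otx1.

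Inhibitors of Wnt signalling were among the genes lower in both spinal groups. Nkd2, which dampens Wnt signalling inside the cell, was 4.72, 4.82 and 4.77 in SC and 6.61, 5.91 and 4.75 in neurospheres, against 10.40, 9.71 and 10.43 in LVW and 10.66, 9.50 and 9.49 in radial glia. Both brain groups stood above every spinal array, with a difference of -4.77 (SE 0.34, adjusted p = 3.49e-06), and Nkd2 was the third gene called lower in the random-block fit beside Otx1 and Dlx2. A second probe for Nkd2 differed by -2.40. Sfrp1, a secreted Wnt antagonist, was 8.79, 8.32 and 6.53 in SC and 5.31, 5.58 and 6.65 in neurospheres, against 11.76, 11.66 and 10.96 in LVW and 12.63, 12.67 and 11.99 in radial glia. It differed by -5.08 (SE 0.40), while a second probe for it differed by -0.80. That second Sfrp1 probe was lower on the spinal side in only 3 of the cross-origin pairs, not in each. Wnt inhibitors were not a list of their own here, and these genes were named for the size of their difference.

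Clic6, an intracellular chloride channel gene, had the largest smallest-pair difference among the lower genes, -5.24, with 10.63 to 12.50 on the brain arrays and 4.54 to 7.42 on the spinal ones. Sostdc1, a secreted antagonist of BMP and Wnt, differed by -3.62 (SE 0.45). Clic6, Sostdc1 and Otx2 are also markers of the choroid plexus, the secretory epithelium of the brain ventricles. Of 7 choroid plexus markers tested, 5 were called lower in spinal cells, where 9.34% of all genes were, and none higher. Ttr passed the filter only through radial glia, and F5 and Otx2 only through brain arrays, so this count is no support in itself. The summed signal of the 7 was 17100 to 23700 on radial glia arrays and 4050 to 6680 on LVW. It was 1220 to 1790 on SC and 208 to 288 on neurospheres. Transthyretin (Ttr), the defining choroid plexus transcript, was undetected in SC, neurospheres and LVW and detected in radial glia. The part of choroid plexus RNA in Clic6, Sostdc1 and Otx2 was not tested. In sorted populations of this kind fewer cells of a type and less RNA per cell cannot be told apart. Across all lists of other cell types, with 68 markers tested, 4 genes were called lower in all 4 pairs and 0 higher. The 4 were Clic6, Sostdc1, Otx2 and the thyroid hormone transporter Slco1c1 of endothelial cells.

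Further genes lower in all 4 pairs were Emb, the transporter partner embigin (-4.39, SE 0.49), the long noncoding RNA Miat (-4.35, SE 0.71), the solute carrier Slc43a3 (-4.40, SE 0.44), the cap-binding protein gene Eif4e3 (-3.66, SE 0.40), the RNA-editing deaminase Apobec1 (-2.48, SE 0.31) and the extracellular matrix gene Mmrn2 (-2.94, SE 0.51). Miat and Mmrn2 were called in the 4 pairs under 15 and 9 of the 22 other settings. Second kept probes gave smaller differences, of -1.25 for Miat, -1.35 for Eif4e3 and -2.23 for Mmrn2. In all, 10 genes were detected on 6 of 6 brain and 0 of 6 spinal arrays (0.105%): Apobec1, Dlx2, Gmip, Lrrc8c, Nkx2-1, Otx1, P4ha3, Slco1c1, Tmc5 and Tnnt2. Prom1, which encodes the CD133 antigen, was 13.34, 12.99 and 13.63 in LVW and 13.46, 13.64 and 13.42 in radial glia, above 11.85, 11.64 and 11.72 in SC and 9.44, 9.82 and 8.94 in neurospheres. CD133 was part of the sort of the 3 groups taken from tissue, and neurospheres were not sorted.

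The effect of origin depended on which pair of groups carried it for many genes. The difference between SC minus LVW and neurospheres minus radial glia was called for 1737 genes, or 18.2%, and 102 genes (1.07%) were called in opposite directions in these pairs, 34 higher in SC than LVW (0.357%) and 68 lower (0.714%). Pax6, a factor of dorsal forebrain and ventral cord progenitors, was 11.13, 11.83 and 11.68 in SC and 9.52, 5.64 and 6.96 in LVW, but 8.75, 8.50 and 8.58 in neurospheres and 11.37, 11.88 and 11.15 in radial glia. SC and radial glia overlapped at the high end, and the difference by origin was 0.66 (SE 0.52). Vtn, the matrix protein vitronectin, was 9.39, 9.28 and 10.08 in SC and 13.86, 13.17 and 13.84 in radial glia, and undetected in the other groups. Dcn, the proteoglycan decorin, was likewise detected only in SC, at 8.52, 7.08 and 8.94, and in radial glia, at 8.56, 7.86 and 7.75.

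Vtn is a marker of pericytes and Dcn of fibroblasts. Of 11 pericyte markers, 8 were called lower in spinal cells, of 9 fibroblast markers 6 and of 10 endothelial markers 4, where 9.34% of all genes were called lower, and none of these lists had a member called higher. The radial glia group detected every one of these markers. SC left 7, 8 and 6 undetected, neurospheres 7, 5 and 4, and LVW 7, 6 and 3, in the same order. Abcc9, Anpep, Higd1b, Kcnj8, Rgs5, Col3a1, Crabp2, Foxc2 and Slco1a4 were detected in radial glia alone. They passed the filter on dim probes only through that group, so the counts of these lists are no support in themselves. The summed pericyte signal was 27400 to 44300 on radial glia arrays, 8810 to 10600 on SC, 4390 to 19700 on neurospheres and 18000 to 23300 on LVW. The fibroblast signal was 1570 to 2640 on radial glia and 278 to 767 over the 3 other groups. The endothelial signal was 7110 to 13200 on radial glia, 454 to 896 on SC, 496 to 651 on neurospheres and 704 to 2320 on LVW. Their part in the Vtn and Dcn values was not tested.

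In the other direction, Camk2b, a subunit of the calcium and calmodulin kinase, was 13.45, 13.58 and 14 in neurospheres and undetected in radial glia, while SC, at 8.34, 8.10 and 6.11, lay below LVW at 8.85, 9.45 and 9.90. Cpe, the peptide-processing carboxypeptidase E, was 7.05, 7.17 and 6.87 in SC, 11.99, 11.64 and 11.89 in LVW, 11.60, 10.98 and 11.14 in neurospheres and 9.46, 9.63 and 8.93 in radial glia. Each group of Cpe arrays was separate from the others. The sodium channel gene Scn7a was 11.11 to 12.21 in LVW and 6.34 to 8.38 in SC, but 8.08 to 9.84 in neurospheres and undetected in radial glia.

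**Figure D5:**
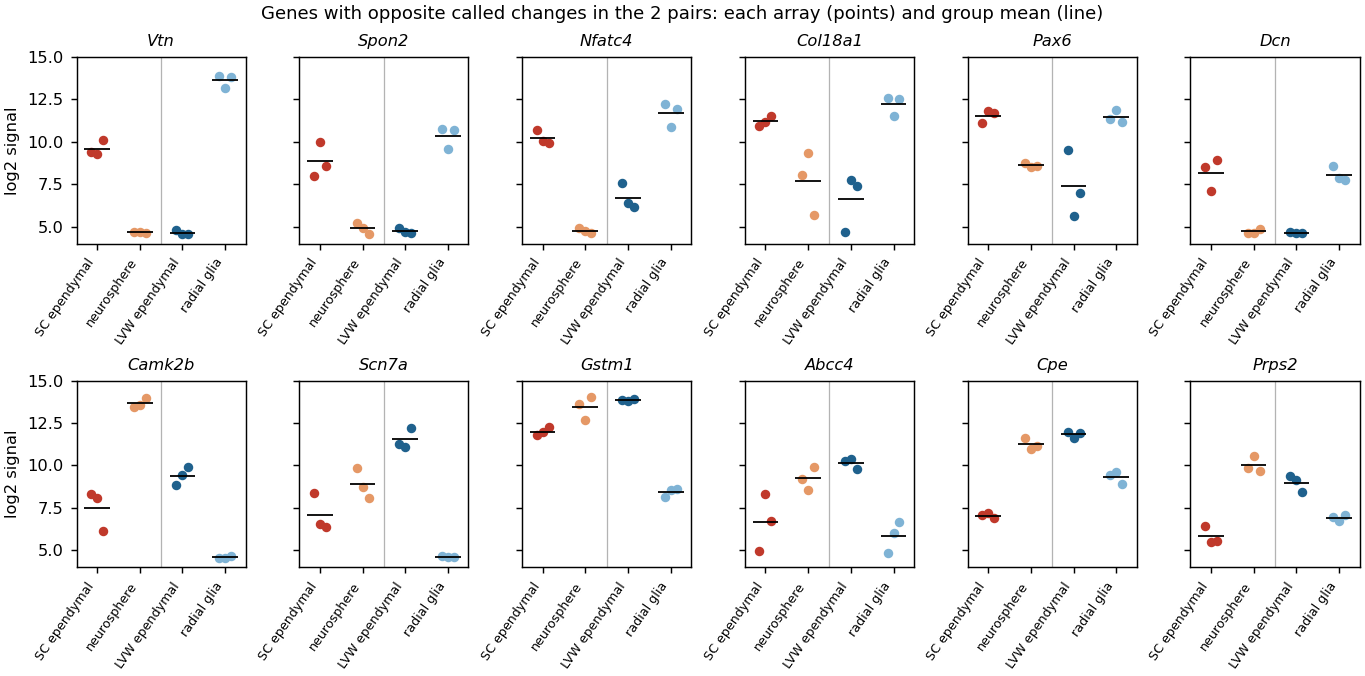
Log2 signal of the 12 genes with the largest opposite changes on each array (points), with the group mean (line). In the upper 6, SC lies above LVW while neurospheres lie below radial glia, and in the lower 6 the reverse holds, as for Camk2b, with -1.88 in the first pair and 9.10 in the second.

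Among lists that do not concern position, the counts by origin are read against 6.59% of all genes called higher and 9.34% lower. None of 28 ribosomal protein genes was called by origin in limma. Of 30 cell cycle genes, 2 were called higher and 4 lower, while 23 were lower in SC than in radial glia, where 17% of all genes were, and 21 were higher in neurospheres than in LVW, where 17.3% were. Of 38 motile cilia genes, 2 were called higher and 10 lower, with 33 higher in SC than radial glia (14.8% of all genes) and 34 lower in neurospheres than LVW (16.4%). Cilia genes such as Hydin passed the filter only through SC and LVW, so the counts in these pairs are no support in themselves. Of 13 astrocyte genes 3 were called higher, of 14 neuronal genes 1 higher and 4 lower, and of 16 dissociation and stress genes 1 higher and 6 lower. The summed signal of the stress genes was 26400 to 38100 on SC, 19200 to 27700 on neurosphere, 25200 to 31500 on LVW and 31800 to 43700 on radial glia arrays, and its part in these counts was not tested. Of 10 oligodendrocyte genes 3 were called higher, and their summed signal ranged from 1920 to 22600 among SC arrays, from 640 to 1400 among neurospheres, from 5090 to 12600 among LVW arrays and from 905 to 1290 among radial glia.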

How the data were processed

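Total RNA of 12 samples was hybridised to Illumina MouseWG-6 v1.1 arrays, 3 independent biological replicates for each of 4 groups per the labels. The unnormalised table the authors deposited gives, per the file headers, an intensity and a detection p-value for each of 46632 probes. Their deposited normalised values, in log2 units, served as an alternative. BeadStudio and lumi are named in the submitters' processing notes.

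Raw intensities were background corrected from the detection p-values, quantile normalised and taken to log2 with limma 3.58.1 in R 4.3.3 (neqc, offset 16). Probes with a detection p under 0.01 on at least 3 arrays were kept (15760), and 12211 of these had 1 gene symbol in the platform annotation, where 10 probes had several and 16646 none. The kept probe with the highest mean stood for a gene, which gave 9526 genes. For 17 of the genes called in all 4 pairs there were 21 other kept probes, of which 21 had the sign of the reported one and 17 its direction in each pair. Sizes could differ between probes, as for Brinp1 (1.22 against the reported 4.45), while Cdh13 gave 3.28 against 3.15.

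A linear model of the 4 groups with limma's moderated test and Benjamini-Hochberg adjustment over all genes gave every adjusted p at a threshold of 0.05. Genes were named by rule: 15 per direction by the smallest of the 4 pair differences, those detected on all 6 arrays of one origin and none of the other, the tested members of the patterning lists, 6 per direction with opposite changes, and 5 most like the Hox profile. Cpeb3, Nap1l5, Rhob and Tgfb3 were named to show the edge of the set. The members, the 29 lists and the tests were chosen with earlier results of these data known. Promoter windows came from RefSeq (GRCm38.p6).

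Alternatives covered the background correction, scaling, probe filter, choice of probe, weights, blocks and each array left out.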

Additional observations from a re-analysis of the deposited data

Results flagged for a closer look

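The genes below stood out because the spinal minus brain difference was not the same in the ependymal groups (SC minus LVW) and in the proliferating groups (neurospheres minus radial glia), by a limma test of the difference between the pairs at an adjusted p under 0.05. Of 101 named genes examined, 53 met this, where 18.2% of all genes did. For the 12 genes named for opposite changes, the rule that named them required it. Positive values mean that the spinal excess was greater, or the deficit smaller, in the ependymal pair. No explanation was tested.

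Among Hox genes the difference between the pairs was 2.99 for Hoxd10, 2.63 for Hoxd3, 2.51 for Hoxb13 and 1.81 for Hoxb5, and -1.53 for Hoxa9 and -1.85 for Hoxb9. Hoxa7, Hoxa5, Hoxc6, Hoxc8 and Hoxc9 did not pass this test. In the retinoic acid pathway the value was -2.97 for Aldh1a1, 3.46 for Rxrg and 2.37 for Crabp2, and among cofactors it was 2.54 for Pbx2.

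Of the forebrain and midbrain factors, Tfap2c had 7.95, Fezf2 5.97, Neurod2 5.71, Eomes 5, Dmrt3 4.86, Neurog2 4.85 and Dmrta2 4.78. The values were 3.62 for Otx1, 3.56 for Foxd1, 3.24 for Bcl11b, 2.64 for Nr2f2, 2.42 for Rax, 2.38 for Nkx2-1, 2.36 for Ebf1, 1.96 for Lhx2, 1.71 for Gsx1 and 1.47 for Emx1. All of these 17 were called lower in neurospheres than in radial glia, while SC minus LVW ran from -4.23 for Otx1 to 0.30 for Nr2f2. Of the dorsal and ventral factors, Zic1 had 7.68, Nkx6-1 5.30, Dbx1 5.21, Rspo3 3.84, Zic4 2.90 and Rspo2 1.35, whereas Nkx2-2 had -3.33, Olig2 -3.79 and Spon1 -5.31, the last 3 being bright in neurospheres.

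Genes called in all 4 pairs could still differ in size, as did Sfrp1 (3.00), Prom1 (2.52), Gpd1 (-1.63), Slco1c1 (-2.35) and Slc43a3 (-2.82). The genes with opposite directions in the pairs gave 13.90 for Vtn, 10.47 for Nfatc4, 9.59 for Spon2, 9.15 for Col18a1, 7.03 for Pax6 and 6.88 for Dcn, and -10.98 for Camk2b, -8.74 for Scn7a, -6.89 for Gstm1, -6.84 for Abcc4, -6.71 for Cpe and -6.28 for Prps2.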

How the results depend on the processing

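Of 3564 values of 162 named results under 22 other settings, 3340 kept their direction and their side of the threshold, 221 lost the call and 3 turned: Birc5 to 0.37 without background correction, and Rax to 0.26 with probes detected on at least 1 array and with no filter. This tally leaves out the random block and origin without a group term, under which 134 and 104 of 150 named calls by origin were lost. Estimated array weights gave 2724 calls by origin (1151 higher, 1573 lower), 1359 with 1 direction in the 4 pairs and 2839 differences between the pairs. Groups as a random block gave 16 (13 and 3), and origin without a group term 120 (63 and 57). Median scaling gave 294 higher, 17 higher in all 4 pairs and 1030 differences between the pairs. Adjusting the largest of the 4 pair p-values left 24 genes in the strict set (14 and 10), and detection on 6 of 6 against 0 of 6 arrays gave 22 (12 and 10). Leaving out each array in turn gave 1118 to 2375 calls by origin (454 to 970 higher, 664 to 1405 lower), 544 to 1190 with 1 direction, 59 to 103 in all 4 pairs (29 to 53 and 28 to 50) and 1226 to 2568 differences between the pairs, and the upper values by origin, 2375, 970 and 1405, with 1190, came without neurosphere replicate 3. Of the strict set, 15 higher and 14 lower genes were called in all 4 pairs under each of the 22 settings, and 34 and 38 without neurosphere replicate 3. Deviations of same-numbered arrays from their group means correlated at -0.229 to 0.322. No common pairing by number was shown, though 3 arrays a group cannot exclude one. A replicate block gave 1298 calls (532 and 766) with 68 in all 4 pairs. Each group rests on 3 arrays, and an undetected probe has only a bound, with the weakest detected signal at 5.06 to 6.24 by array. The causes of these shifts were not tested.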
